A study of Drosophila melanogaster with 8 samples.

Results

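The 38 genes described here encode receptors and ligands that guide growing axons or let them choose their targets: Slit and its Robo receptors, Netrins and theirs, semaphorins and plexins, Eph and Ephrin, receptor tyrosine phosphatases, Dscam proteins, teneurins, leucine-rich repeat receptors, adhesion molecules, and the surface proteins stan and fz2. They were chosen by name as a list and matched to the deposited table by gene symbol or, where the symbol had changed, by FlyBase identifier. All 38 of 38 were found among the 15127 genes of the table, and all 38 passed the filter on low values, so none dropped out. RNA selected for poly(A) tails was read from the retinas of Drosophila melanogaster females at 40 h of pupal life, counted from puparium formation. Pooled retinas gave 4 libraries of the control stock, genotype w[1118] (written W1, W2, W5 and W6 after the numbers in the column names), and 4 of a stock of genotype w[*] sev[14], called sev14 here (S1, S2, S4 and S5). Both stocks carry a mutant allele of w, which in the sev14 stock is unspecified, and the sev14 stock carries in addition an allele of sevenless (sev). The title of the study asks which transcription depends on the R7 photoreceptor. The labels call the libraries replicates but name no separate animal, pool or day for them. The p-values therefore measure the spread between these libraries and nothing more, and that spread may be technical.

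An axon steers by reading secreted and membrane-bound proteins with receptors on its growth cone. Netrin attracts axons through Frazzled and repels them through Unc-5, Slit repels through the Robo receptors, and semaphorins act through plexins. In the fly visual system the R7 and R8 photoreceptors project to separate layers of the medulla, a part of the optic lobe of the brain, while the outer photoreceptors stop in the lamina. Receptor tyrosine phosphatases such as Lar and Ptp69D and the cadherin Flamingo (gene stan) are known for roles in these choices. The sev gene encodes a receptor tyrosine kinase of the R7 precursor. Its signal makes that cell a photoreceptor, and in sevenless mutants the cell takes the fate of a lens-secreting cone cell.

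Values are normalized counts, which are gene counts that the authors divided by 1 factor per library, and they are listed in the order W1, W2, W5, W6 for control and S1, S2, S4, S5 for sev14. Changes are differences of log2(normalized count + 1), sev14 minus control, tested with limma over 10192 genes, and a gene is said to have risen or fallen where the Benjamini-Hochberg adjusted p was under 0.05. Recovered totals ran from 13755813 to 19317307 reads per library, and the share of reads on ribosomal RNA genes was 12.5% for S2, 10.1% for S5 and at most 3.67% for the others. The transcript of sev itself, the gene that differs by label, overlapped between the genotypes. It stood at 222, 338, 349.6 and 283 in the control libraries and 202, 416, 119 and 358 in the sev14 libraries (difference -0.26, exact permutation p = 0.629, 2-sided, smallest possible p 0.0286). Without S4 the difference was 0.08. The labels do not say what lesion sev[14] carries, and since each genotype is 1 stock, the allele and the rest of the stock's background cannot be told apart.

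Of the 38 genes, 1 rose in sev14 retinas and 0 fell, against 4.21% of all tested genes called by limma in either direction, 2.38% called higher and 1.82% called lower. The gene that rose was Sema2b, a secreted semaphorin, with a change of 0.83 on the log2 scale. edgeR and DESeq2 on the recovered reads each called the same count, 1 gene, against 3.77% and 7.86% of the genes they tested, and so did the authors' deposited table, against 6.78%. Sema2b was the gene called in all of these. Before adjustment, 2 genes had a p under 0.05, Sema2b and Ptp10D, against 16.7% of all tested genes. The same 2 were the genes whose libraries did not overlap between the genotypes, both with sev14 higher, against 11.1% of all tested genes in either direction, 5.92% with sev14 higher and 5.18% with sev14 lower. On each of these measures the share of the 38 genes in either direction was at or under that of all tested genes.

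The other 37 changes ran from -0.70 for Dscam4 to 0.45 for Toll-7, and 27 of them lay below 0, against 5035 of all 10192 tested genes. The genes share their libraries, so their changes are not independent of each other. The median over all 38 genes was -0.14, against 0.00 over all tested genes. The half-width of the 95% interval of a change had a median of 0.47. For 7 genes that were not called (NetA, Dscam1, Dscam3, Dscam4, Toll-6, Toll-7 and side) the interval reached a 2-fold difference in at least 1 direction.

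**Figure D1:**
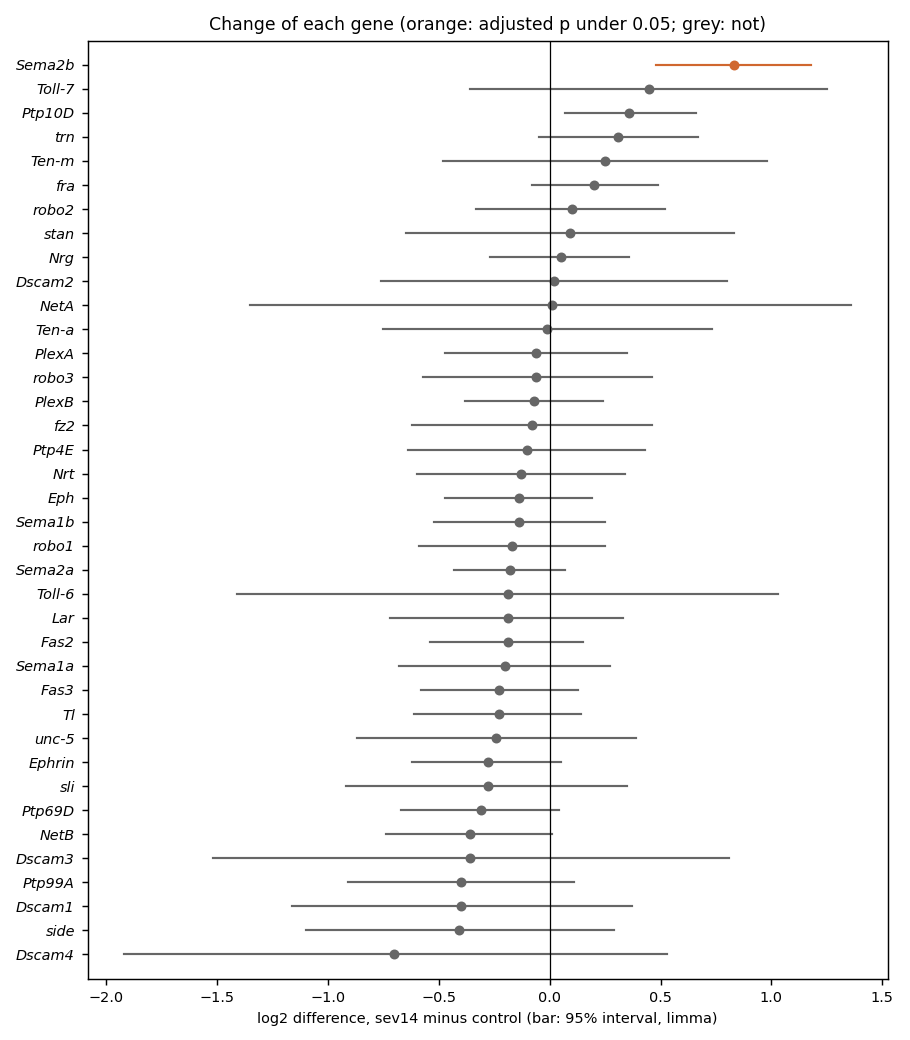
Difference of log2(normalized count + 1), sev14 minus control, for each of the 38 genes (points) with its 95% interval from limma (bars). Sema2b, in orange, is the gene with an adjusted p under 0.05, and the intervals of the Dscam genes and of Toll-6 are among the wide ones.

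Levels can be set side by side only per length, and for this the control mean was divided by the kilobases of union exon in the Ensembl annotation. On that scale the genes ran from 10.8 ± 5.43 normalized counts per kb for NetA to 1863 ± 275 for Fas2 (SD, n = 4), with a median of 515 over the genes. There were 8 genes above 1000 per kb: Fas2, Nrt at 1861 ± 501, Fas3 at 1609 ± 213, Nrg at 1328 ± 60.7, fra at 1310.1 ± 97.0, sli at 1258 ± 266, Tl at 1200.0 ± 216 and trn at 1112 ± 179. From Nrg down to trn, neighbours in this order differed by less than the SD of either gene, while Fas3 and Nrg differed by more. In the lower range stood Toll-6 at 58.6 ± 32.5 and NetA, the 2 genes under 100 per kb. The union exon of Dscam1 holds 115 exon blocks from 75 annotated transcripts, many of them alternatives to each other, so its level per kb, 184 ± 48.1, is understated.

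**Figure D2:**
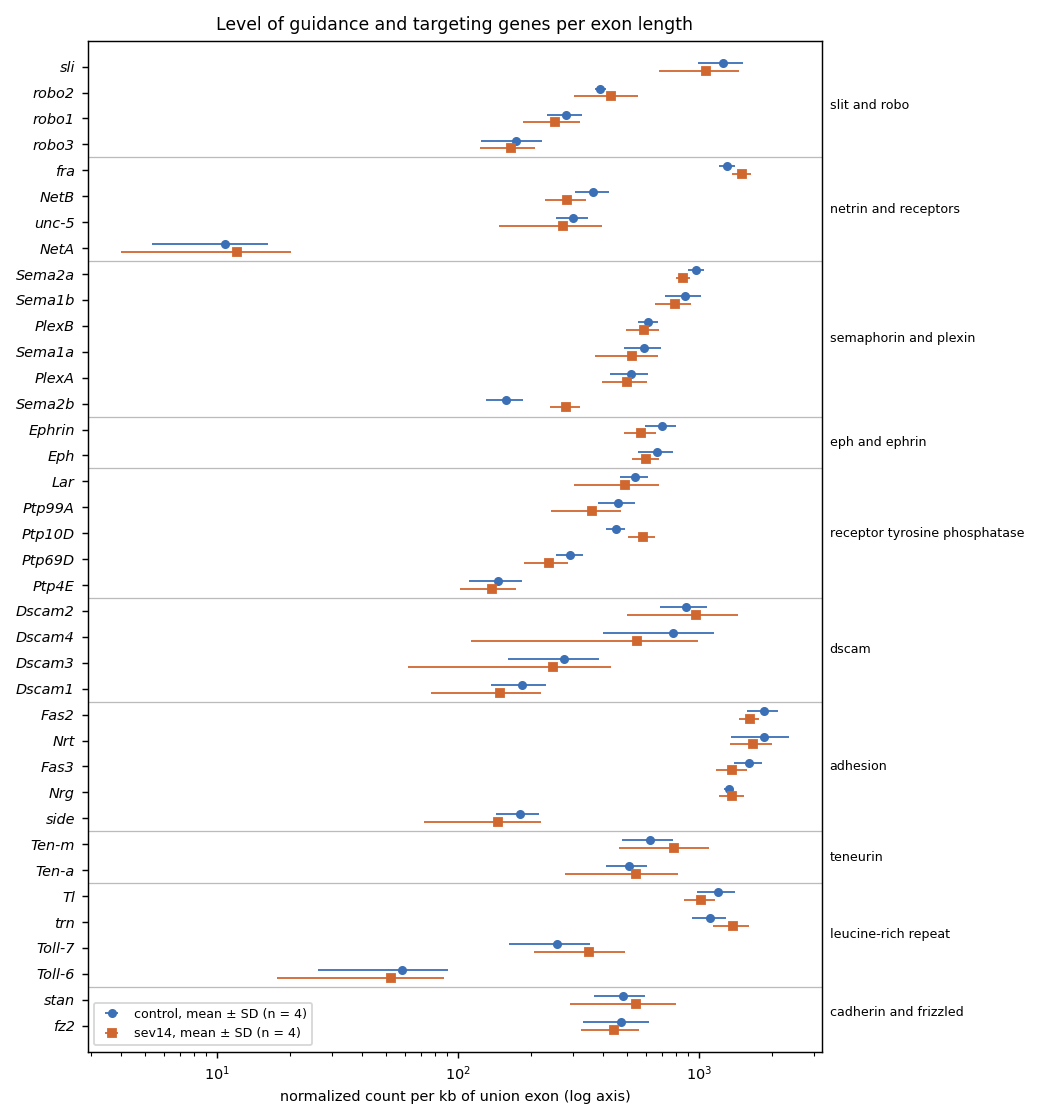
Normalized count per kilobase of union exon on a log axis, as mean ± SD over the 4 control libraries (blue circles) and the 4 sev14 libraries (orange squares), with the genes grouped by role. The bars of the genotypes do not overlap for Sema2b and Ptp10D.

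The gene that rose belongs to the semaphorins and plexins. Sema2b (FBgn0264273, 2R 16386524 to 16431758, plus strand, on BDGP6 as deposited) encodes a secreted semaphorin that in the fly embryo acts through Plexin B as an attractant. It stood at 1016, 734, 832 and 696 in the control libraries and 1481, 1713, 1412 and 1206 in the sev14 libraries. All 4 sev14 libraries lay above all 4 control libraries, at 819.6 ± 143 and 1453 ± 209 (SD, n = 4), a 1.78-fold difference (log2 0.83 ± 0.16 SE, 95% interval 0.48 to 1.18, limma adjusted p = 0.0150). The authors' deposited table gives Sema2b a log2 fold change of 0.83 and an adjusted p of 2.17e-05. The limma adjusted p was 0.0508 without S1, 0.116 without S2 and S4, 0.0542 without S2 and S5, and 0.0124 to 0.0496 without any 1 of the other 7 libraries, with the change between 0.72 and 0.94 in each of these. In RNA from whole dissected retinas, more cells of a type and more RNA per cell cannot be told apart.

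Sema2a, the secreted paralog on the same arm (FBgn0011260, 2R 16500178 to 16533459, plus strand) and known as a repellent through Plexin B, was not called. It stood at 4477, 3769, 3854 and 4135 in the control libraries and 3586, 3236, 3810.4 and 3694 in the sev14 libraries (log2 -0.18, limma adjusted p = 0.487), and the genotypes overlapped. Per kb of exon, the level of Sema2b was 0.136 to 0.183 of that of Sema2a in the control libraries and 0.263 to 0.427 of it in the sev14 libraries, and these ratios did not overlap. The ratio was not tested, since the pair was chosen after the values of Sema2b had been seen.

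The membrane-bound semaphorins Sema1a and Sema1b, and the plexins PlexA and PlexB that serve as receptors for semaphorins, showed no call. Sema1a, which can act as a ligand or as a receptor in photoreceptor axons, was at 7137, 5973, 6431 and 4633 in the control libraries and 4334, 7420.1, 3967 and 5658 in the sev14 libraries (log2 -0.20, adjusted p = 0.722). Sema1b was at 4384, 2966, 4414 and 4140.4 in the control libraries and 3426, 2883, 4351 and 3796 in the sev14 libraries (log2 -0.14). PlexA, the receptor of the Sema1 proteins, was at 5530.1 ± 999 in control and 5330.2 ± 1130 in sev14 libraries, and PlexB, the receptor of the Sema2 proteins, at 4348 ± 401 in control and 4170.5 ± 651 in sev14 libraries, with 95% intervals for their log2 changes of -0.47 to 0.35 and -0.38 to 0.24.

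**Figure D3:**
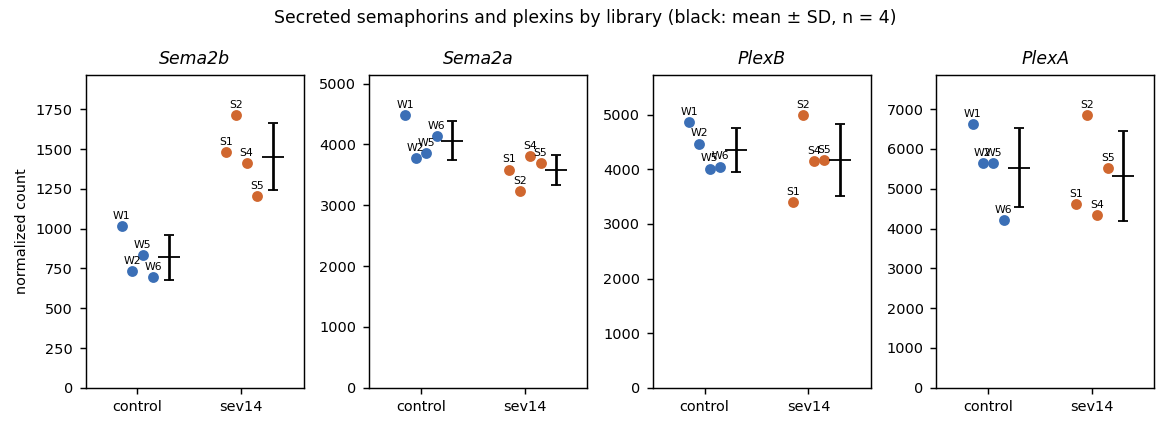
Normalized count of Sema2b, Sema2a, PlexB and PlexA in each library (points, W in blue for control and S in orange for sev14), with the mean ± SD of the 4 libraries of a genotype in black. The Sema2b points of the genotypes do not overlap, while those of the other 3 genes do.

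Genes next to Sema2b were looked up after its value had been seen. Within 100 kb on each side the table holds 41 other genes, Sema2a among them, of which 22 were tested. By limma 0 were called, with 4 at an unadjusted p under 0.05, against 4.21% and 16.7% of all tested genes. By DESeq2 3 were called, jtb, Parp16 and CG33458, all at low levels, against 7.86% of the genes it tested. The gene jtb, named here after its value was seen, begins 486 bases after it on the same strand. It had 26.6, 1.00, 1.12 and 0 normalized counts in the control libraries and 125, 69.1, 17.2 and 55.3 in the sev14 libraries (log2 4.06, limma adjusted p = 0.0589, and 0.0379 by DESeq2). The control library W1 lay above S4 for jtb. Reads that run past the end of Sema2b were not examined here. Menl-1 and Menl-2 lie within the span of Sema2b and were not tested, since they did not pass the filter.

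Markers of other cells that moved with the genotype stand beside the Sema2b result, and their part in it was not tested. All 7 tracheal markers were tested and 1, Gasp, was called higher by limma, with 3 called by edgeR, 5 by DESeq2, 6 in the authors' deposited table and 6 at an unadjusted p under 0.05. Of the 7 changes 6 lay above 0, and pio went the other way (log2 -1.27, limma adjusted p = 0.0692, no overlap). Their summed level was 3220 to 6570 in control and 9551 to 18290 in sev14 libraries. The tracheal receptor gene btl was at 8.85, 20.1, 31.4 and 27.7 in the control libraries and 144, 156, 67.8 and 20.0 in the sev14 libraries. In S5, the sev14 library lowest for Sema2b and for the tracheal sum, btl, serp and verm lay inside the range of the control libraries, while Gasp at 6382 lay above it. Elsewhere the orders differed. Among sev14 libraries S2 was the highest for Sema2b and S1 for the tracheal sum. Among control libraries W6 was the lowest for Sema2b and W2 for the tracheal sum. All 8 fat body markers were tested and 1, Lsp1alpha, was called higher by limma and 3 were called by DESeq2, with a summed level of 19194 to 47783 in control and 27261 to 78418 in sev14 libraries. Of the 8 changes 7 lay above 0, and Fbp1 was at -0.10. Of the 10 glial markers 9 were tested and 2, Mdr65 and wrapper, were called lower by limma, and 4 were called by DESeq2. Of these 9, 4 lay lower and 1, nrv2, higher without overlap (nrv2 log2 0.53, adjusted p = 0.0686 by limma and 0.0105 by DESeq2). The glial sums were 33408 to 42281 in control and 27537 to 31475 in sev14 libraries, and the marker gcm was at or near 0 in every library. All 10 cone and pigment cell markers were tested. Limma called 1 higher, cn (log2 1.17, adjusted p = 0.0208, no overlap), which edgeR and DESeq2 also called. Of the 10 changes 5 lay above 0 and 5 below, the lowest being Crys (log2 -1.02, limma adjusted p = 0.228). Their summed level was 20817 to 22792 in control and 21084 to 26169 in sev14 libraries. All 8 muscle markers were tested and limma called 0. DESeq2 called 1, Act88F (log2 -4.95, adjusted p = 0.0106 by DESeq2), for which the genotypes overlapped. The muscle sum was 4076 in W6 and 41604 in W5 among controls, and 6551 to 16493 in sev14 libraries.

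Netrins and their receptors showed no call. NetB, a secreted netrin that R8 axons use in the medulla, had the third smallest p of the 38 genes and stood at 3285, 3441, 2831 and 2356 in the control libraries and 2016, 2908, 1933 and 2419 in the sev14 libraries (log2 -0.36, 95% interval -0.74 to 0.01, adjusted p = 0.315). S2 and S5 lay inside the control range, and S1 and S4 below it. NetA, its neighbour on X, was barely present, at 19.5, 50.2, 21.3 and 53.3 in the control libraries and 61.2, 66.0, 22.1 and 12.4 in the sev14 libraries, with 299 reads in all 8 libraries. The receptor gene fra (Frazzled) was at 8511, 7392, 8421 and 8796 in the control libraries and 9276, 9687, 8599 and 10589 in the sev14 libraries (log2 0.20, adjusted p = 0.493), and its lowest sev14 library, S4, lay between the control values. The repulsive receptor gene unc-5 was at 1753, 1711, 1583 and 1242 in the control libraries and 1370.2, 2326, 772 and 1231 in the sev14 libraries. Its highest and lowest values were both in sev14 libraries, S2 and S4.

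For Slit and each of its receptors the SD among sev14 libraries exceeded the difference between the genotype means. The ligand gene sli was at 13319, 13552, 13273 and 8272 in the control libraries and 8397, 13251, 5956 and 13686 in the sev14 libraries (log2 -0.28, 95% interval -0.92 to 0.35). W6, S1 and S4 were the low libraries, and the remaining 5 lay close together. The receptor genes robo1 (robo in the deposited symbols), robo2 (lea) and robo3 were at 1904 ± 318 in control and 1718 ± 455 in sev14 libraries, 2419.9 ± 130 in control and 2671 ± 792 in sev14 libraries, and 1234 ± 350 in control and 1180.3 ± 302 in sev14 libraries. Their log2 changes were -0.17, 0.10 and -0.06, with adjusted p values of 0.751 to 0.946 by limma. For robo2 the control libraries lay close together (2549.9, 2251, 2394 and 2485), while the sev14 libraries ran from 1839.8 in S1 to 3731 in S5. Of the exon bases of robo2, 41.0% are shared with 2 noncoding genes of the annotation, 1 on each strand.

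The receptor tyrosine kinase gene Eph stood at 4514, 4254, 3285 and 3354 in the control libraries and 3295, 4082, 3524 and 3029.5 in the sev14 libraries. The gene for its membrane-bound ligand, Ephrin, stood at 4025, 4212, 3674 and 2947 in the control libraries and 2934, 3731, 2741 and 2784 in the sev14 libraries. Ephrin had the larger difference of the pair (log2 -0.28, 95% interval -0.62 to 0.05, adjusted p = 0.398): S1, S4 and S5 lay just below the lowest control library, and S2 lay inside the control range. The change of Eph was -0.14 (95% interval -0.47 to 0.19).

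Receptor tyrosine phosphatases, which remove phosphate from tyrosines inside the growth cone, had changes on both sides of 0 and no call. Ptp10D (FBgn0004370, X 11622015 to 11677338, plus strand) stood at 3583, 3675, 4209 and 4296 in the control libraries and 4362, 5649.9, 4679 and 5640.1 in the sev14 libraries. Every sev14 library lay above every control library, although S1 and W6 differed little (log2 0.36, 95% interval 0.07 to 0.66, unadjusted p = 0.0207, limma adjusted p = 0.185). Ptp10D is 536 kb from sev on X, and of the 7 listed genes on X it is the nearest, followed by Ten-a at 957 kb. Its close paralog Ptp4E was at 1376, 1168, 921 and 785 in the control libraries and 1028, 1192, 618 and 1156 in the sev14 libraries (log2 -0.10).

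Ptp69D and Lar are both needed by R7 axons to keep to their layer of the medulla. Ptp69D was at 1575, 1748, 1405 and 1309.5 in the control libraries and 1027, 1594, 1124 and 1157 in the sev14 libraries (log2 -0.31, adjusted p = 0.369). S2 again lay inside the control range, and the other 3 sev14 libraries lay below it. Lar was at 6019.6, 6367, 5231 and 4739.6 in the control libraries and 3741, 7881, 3683 and 5126 in the sev14 libraries (log2 -0.19, 95% interval -0.72 to 0.33), so both ends of its range were in sev14 libraries. Of the exon bases of Lar, 83.6% are shared with the same-strand gene model CG46244, which was not analysed here. Ptp99A was at 4740.3, 4455, 4588 and 3128 in the control libraries and 2591, 4580.0, 2278 and 3700.3 in the sev14 libraries (log2 -0.40, adjusted p = 0.443), with S4 and S1 below all control libraries and S2 among them. Of its exon bases 17.2% lie opposite CG2321 on the other strand, whose reads cannot be told apart if strand was not used in counting.

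Dscam genes encode homophilic immunoglobulin-family receptors. Dscam1 lets sister neurites tell self from other, and Dscam2 is known for tiling in the optic lobe. Their levels varied widely within each genotype. Dscam4 ran over 7941, 9388, 4451 and 2913 in the control libraries and 3560.3, 9321, 1309 and 3235 in the sev14 libraries. Dscam3 ran over 2977, 3214, 1993 and 1139.7 in the control libraries and 1482, 4312, 637 and 1988 in the sev14 libraries. In both genes S2 was the highest sev14 library and S4 the lowest of all 8, a ratio of 7.12 for Dscam4 and 6.77 for Dscam3. Dscam1 was at 5321, 6132, 4974 and 3117 in the control libraries and 3159, 6361, 1906 and 4371 in the sev14 libraries. Dscam2 was at 12758, 13697, 11333 and 7898 in the control libraries and 9203, 19376, 5915 and 15844 in the sev14 libraries, and S4 was again the lowest for both. The log2 changes were -0.70 for Dscam4 (95% interval -1.92 to 0.53), -0.40 for Dscam1, -0.36 for Dscam3 and 0.02 for Dscam2, all smaller than this spread.

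Teneurins are large transmembrane proteins that pair synaptic partners. Ten-m stood at 8987, 9647, 9029 and 5297 in the control libraries and 9154, 14507, 4987 and 12541 in the sev14 libraries (log2 0.25). Ten-a stood at 9268, 9458, 9878 and 6153 in the control libraries and 6977, 15187, 4621 and 10587 in the sev14 libraries (log2 -0.01). In both genes W6 stood below the other control libraries, and S2 and S4 were the extremes of sev14.

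The leucine-rich repeat genes differed in pattern. The surface protein gene trn (Tartan), a relative of capricious, was at 3699, 2974, 3859.8 and 4440.0 in the control libraries and 4187, 4116, 5829.6 and 4410.2 in the sev14 libraries (log2 0.31, 95% interval -0.05 to 0.67, adjusted p = 0.388), with S4 the highest of all libraries. Tl, the Toll receptor known from dorsoventral patterning and immunity, was at 5874, 5022, 7706 and 6349 in the control libraries and 4120.2, 5817, 5639 and 5595 in the sev14 libraries (log2 -0.23), with S1 the low library. The neurotrophin receptor genes Toll-6 and Toll-7 varied more. Toll-6 was at 684, 623, 318 and 163 in the control libraries and 319, 775, 145 and 366 in the sev14 libraries (log2 -0.19). Toll-7 was at 2008, 1678, 2142 and 785 in the control libraries and 1953, 3455, 1243 and 2328 in the sev14 libraries (log2 0.45, 95% interval -0.36 to 1.25). W6 and S4 were the low libraries for both genes.

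Adhesion molecules held 4 of the 8 highest levels per kb. The homophilic adhesion gene Fas2 stood at 11779, 11970.2, 15304 and 15391 in the control libraries and 10198, 12065, 12569.9 and 12530.1 in the sev14 libraries (log2 -0.19). Fas3, an epithelial and neuronal adhesion gene, stood at 10668, 8808, 10829 and 12246 in the control libraries and 8182, 7786, 10394 and 10050.2 in the sev14 libraries (log2 -0.23, adjusted p = 0.552). The genotypes overlapped for each. Nrg (Neuroglian), an L1-type adhesion molecule of neurons, glia and epithelia, varied least among the control libraries of all 38 genes, with a coefficient of variation of 4.58% and a change of 0.05 (95% interval -0.27 to 0.36). Nrt (Neurotactin), which binds Amalgam, was at 7968 ± 2140 in control and 7195 ± 1420 in sev14 libraries. The gene side (Sidestep), an attractant read by Beat receptors, was at 2156, 2394, 2412 and 1489 in the control libraries and 1135, 2912, 1004 and 1804 in the sev14 libraries (log2 -0.41, adjusted p = 0.597), and both extremes were sev14 libraries.

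The seven-pass cadherin gene stan (Flamingo), which outer photoreceptors and R8 use in target choice, was at 6230.3, 7537, 7907 and 4432 in the control libraries and 4979.9, 10973, 3940.4 and 9786 in the sev14 libraries (log2 0.09, 95% interval -0.65 to 0.83). S2 and S5 lay above every control library and S4 below them all. The Wnt receptor gene fz2 was at 3515 ± 1070 in control and 3294 ± 892 in sev14 libraries (log2 -0.08).

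Most of these genes shared an order of the libraries. S2 was the highest sev14 library in 29 of the 38 genes, where it was highest in 26.6% of all tested genes, and S4 was the lowest in 24, against 31.3%. Among control libraries W6 was the lowest in 25 of 38, against 27.1% of all tested genes, while W2 was the highest in 14 and W1 in 12. S1 was the highest sev14 library in 0 of the 38 genes, against 24.9%. The 24 genes lowest in S4 included all 4 Dscam genes, both teneurins, sli, robo1, robo3, unc-5, side, stan and Lar.

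The ratio of S2 to S4 measures this spread within 1 genotype. Its median over the 36 genes with a mean of at least 500 was 1.64, against 0.965 over the 4780 tested genes at that level, and it was at least 2 in 13 of the 36, or 36.1%, against 9.06%. A smaller set went the other way: S4 was the highest sev14 library for trn, Fas2, Fas3, Sema1b and Sema2a, with ratios of 0.663 to 0.960. For Sema2b the ratio was 1.21, for Ptp10D 1.21, for fra 1.13 and for Nrg 1.03. Among controls the ratio of W2 to W6 had a median of 1.40 over the 36 genes, against 0.953. The order was also seen in the other guidance genes of guidance signalling: of 109 tested, S2 was the highest sev14 library in 63 and S4 the lowest in 57, and W6 was the lowest control library in 59. For the 89 of them with a mean of at least 500, the ratio of S2 to S4 had a median of 1.33 and was at least 2 in 26, or 29.2%. No test was made of these ratios, since the genes share their libraries.

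**Figure D4:**
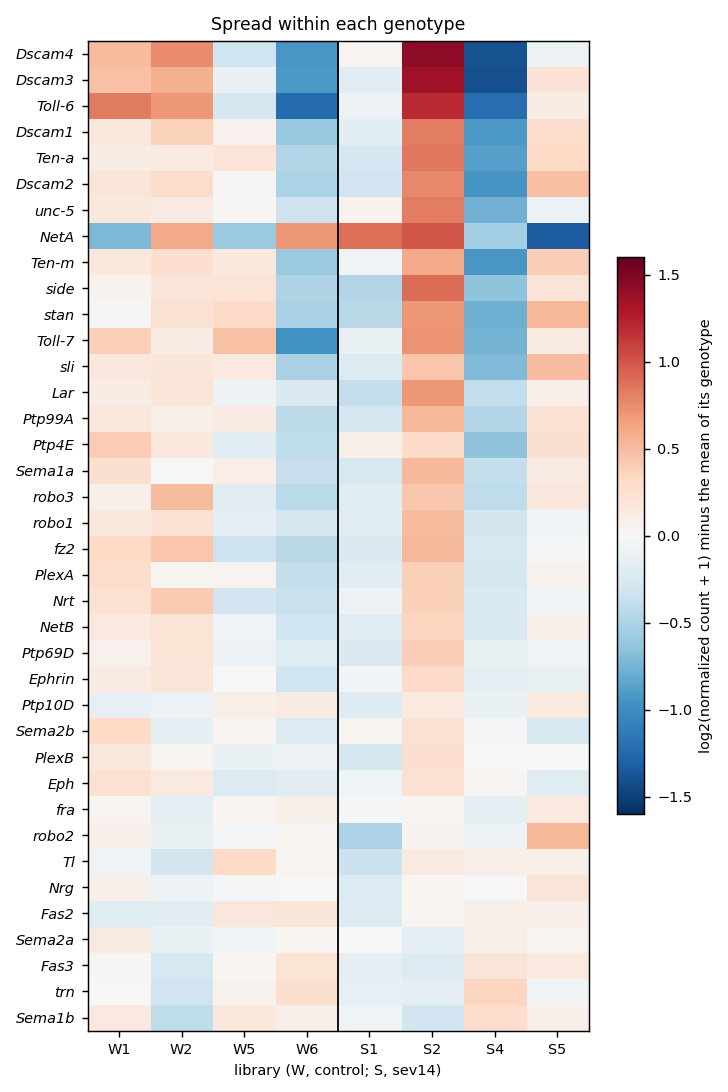
Each cell gives log2(normalized count + 1) of 1 gene in 1 library minus the mean of its genotype, with the genes ordered by the ratio of S2 to S4. From Dscam4 at the top to Sema1b at the bottom, red in S2 and blue in S4 and W6 give way to the reverse.

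Markers of optic lobe neurons ordered the libraries in a like way, and parts of this order were also seen in marker lists of other tissues. All 16 were tested, and none of the 16 was at 0 in every library. By limma 0 were called and 1 had an unadjusted p under 0.05, against 4.21% and 16.7% of all tested genes. edgeR and DESeq2 called 0 each, against 3.77% and 7.86%. Their summed level was 13073, 14463, 9381 and 7733 in W1, W2, W5 and W6, and 9213, 15193, 6545 and 8442 in S1, S2, S4 and S5. The vesicular glutamate transporter gene VGlut was at 2681, 3264, 1392 and 1013 in the control libraries and 1389.5, 2792, 669 and 981 in the sev14 libraries. The summed level of the 38 guidance genes was 204947, 201869, 194061 and 161761 in the control libraries and 155086, 235410, 144997 and 202397 in the sev14 libraries. Both sums were thus highest in S2 and lowest in S4, although they differed in order for W1 and W2 and for S1 and S5. The optic lobe markers ey, toy, bsh, Gad1 and Lim1 were not lowest in S4. The sum of 7 haemocyte markers was also highest in S2, at 11890, and lowest in S4, at 5137. Among controls that sum fell from 10554 in W1 to 6533 in W6. The fat body and muscle sums were also lowest in W6 among controls, at 19194 and 4076, and in S4 among sev14 libraries, at 27261 and 6551. Among sev14 libraries both were highest in S1. The glial sum was highest in S2, at 31475, and lowest in S4, at 27537, among sev14 libraries, but lowest in W1 among controls. The tracheal sum was lowest in W2 and in S5. In S4 the mean log2 deviation was 0.10 for the 6 tested haemocyte markers and -1.05 for the optic lobe markers. It was -0.82 for muscle, -0.36 for glial and -0.29 for fat body markers.

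The photoreceptor markers, which check the tissue, summed to 66497, 61194, 70794 and 79625 in the control libraries and 74236, 88251, 94032 and 87693 in the sev14 libraries, with S4 the highest. Their mean log2 deviation in S4 was -0.17, although S4 had the highest sum. That mean weighs all genes alike, among them trpl, at 1.64 in S4 and 13.97 to 33.5 in the other libraries. It also includes Arr1, at 0 to 10.05 in every library. The sum weighs genes by level, and chp gave its largest part in S4, 34176. All 16 were present and tested, and by limma 0 were called higher and 2, nSyb and Galphaq, were called lower. The adjusted p for nSyb was 0.0489 by limma, close to the threshold, 0.0594 by edgeR and 0.00816 by DESeq2. For Galphaq it was 0.0331 by limma, 0.0413 by edgeR and 0.00182 by DESeq2. Of all tested genes 2.38% were called higher and 1.82% lower. The pan-neuronal gene elav, which was listed with the photoreceptor markers and which brain neurons also express, was at 5778, 5553, 4605 and 3741 in the control libraries and 3609, 6770.0, 2859.6 and 4942 in the sev14 libraries, with S4 the lowest. S4 was also the lowest sev14 library for futsch, Syt1, norpA and trpl, and for the cone and pigment markers ct and kirre. The ratio of S2 to S4 was 3.44 for futsch, 1.91 for Syt1, 2.13 for norpA, 4.61 for ct and 2.04 for kirre. It ran from 0.414 to 0.984 for gl, chp, nSyb, eys, trp, ninaC, otd, pph13 and Hdc. For sv, lz, Crys, B-H1, cn and v it ran from 0.24 to 0.714. The part of any of these cells in the levels of the guidance genes was not tested.

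**Figure D5:**
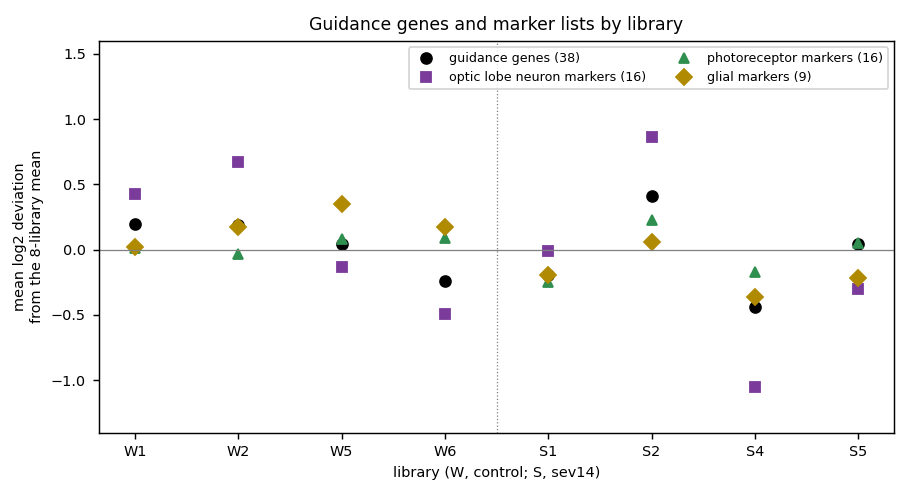
Mean deviation of log2(normalized count + 1) from the mean of the 8 libraries, averaged over the 38 guidance genes and over the markers of optic lobe neurons, photoreceptors and glia, for each library. In S2 the guidance genes stand at 0.41 and the optic lobe markers at 0.86, and in S4 at -0.44 and -1.05. The fat body, muscle, haemocyte, tracheal, and cone and pigment cell lists are not drawn.

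Other genes of guidance signalling were examined as a list of 111, of which 110 were matched and 109 tested. They included effectors inside the growth cone, ligands and cofactors, the Beat and Side family, and further surface receptors. Of the 109, 0 rose and 1 fell, against 4.21% of all tested genes called in either direction. There were 12 at an unadjusted p under 0.05, against 16.7%. edgeR called 1, against 3.77%, DESeq2 called 4, against 7.86%, and the authors' deposited table calls 6, against 6.78%. Their median change was -0.06, against 0.00 over all tested genes. The gene that fell was Rac2 (FBgn0014011, 3L 7432762 to 7435190, minus strand), a GTPase of the Rac family that remodels actin. It stood at 1367, 960.5, 1184 and 1062 in the control libraries and 754, 565, 566 and 583 in the sev14 libraries (log2 -0.89 ± 0.15 SE, limma adjusted p = 0.00882, lower in 4 of 4 libraries). Its close relative Rac1 was at 2050.5, 1627, 1509 and 1869 in the control libraries and 1595, 1523, 1757 and 1491 in the sev14 libraries (log2 -0.14, adjusted p = 0.662). The paralogs are alike in sequence, so reads may have been shared between them. The adjusted p for Rac2 was 0.0889 without S2 and S4 and 0.082 without S2 and S5.

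In the other 3 lists limma called 0 genes. Among 29 ligands and cofactors the smallest p values belonged to spz, the Toll ligand, at 104, 142, 149 and 133 in the control libraries and 299, 237, 244 and 176 in the sev14 libraries (log2 0.84, adjusted p = 0.0625, and 0.00998 by DESeq2), and sas, which encodes a ligand of Ptp10D. The level of sas was 1414, 1088, 1729 and 1622 in the control libraries and 2159, 2735, 1983 and 1674 in the sev14 libraries (log2 0.55, adjusted p = 0.155). For spz the genotypes did not overlap. In the Beat and Side family of 21 genes, 18 changes lay below 0, against 5035 of all 10192 tested genes. In that family beat-VII was at 209, 188, 127 and 113 in the control libraries and 48.4, 129.8, 56.4 and 51.5 in the sev14 libraries (log2 -1.22, adjusted p = 0.0991, and 0.0472 by DESeq2). Next in that family was side-V at 3340.5, 3124, 3711 and 3878 in the control libraries and 3629, 3725, 5530.4 and 4953 in the sev14 libraries (log2 0.33, adjusted p = 0.351). Of 30 further surface genes tested, the transmembrane semaphorin gene Sema5c was at 4208, 3338, 4729 and 5352 in the control libraries and 2811, 3254, 3196 and 3141 in the sev14 libraries (log2 -0.49, adjusted p = 0.118, and 0.0419 by DESeq2). The integrin gene scb was at 1382, 1322, 1571 and 1197 in the control libraries and 1166, 918, 1044 and 1004 in the sev14 libraries (log2 -0.40, adjusted p = 0.119). For Sema5c and for scb the genotypes did not overlap. Over the 109 tested genes of guidance signalling 5 did not overlap, against 11.1% of all tested genes.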

How the data were processed

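RNA of 8 libraries was measured, 4 per genotype. The submitters' processing notes name DESeq2 1.32.0 and RSEM 1.2.31, with HISAT2 2.0.3, cutadapt 1.9.1 and FastQC 0.11.4, and the builds dm6 and BDGP6. Each library column that the authors deposited is a signal, the gene's count divided by a factor, and at least 99.98% of values were within 0.05 reads of a whole multiple of 1 read. The authors' deposited log2 fold change and p-value (FDR) served for comparison only, and the deposited score was not used. No source used here states whether strand entered the counting, and 9 of the 38 genes share exon bases with another annotated gene. Columns were assigned to genotypes by their letters, W and S, and their numbers were not matched to the titles.

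The test was limma 3.58.1 under R 4.3.3 (2-sided, intensity trend) on log2(normalized count + 1) of genes with a mean of at least 5, adjusted over 10192 genes at 0.05. This scale understates the change of low genes. Alternatives were TMM or total-read scaling, pseudocounts of 0.5 or 5, a filter of 20 or none, recovered reads in edgeR 4.0.16 or DESeq2 1.42.0, libraries left out, and a replicate block. The script was also tried on simulated data. The genes, lists and tests were chosen with earlier results of these data known. Values by library are given for called genes, the 14 genes of smallest p, the highest per kb in each role, and further genes added afterwards. Partner genes are named where called, or else the 2 of smallest p in a list. Symbols differed from the deposited ones for 6 genes. Exon lengths came from the Ensembl BDGP6 annotation, which gave all 38 genes the deposited coordinates. Python 3.11.15 read the table. Protein and promoter sequences were not used here.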

Additional observations from a re-analysis of the deposited data

Results flagged for a closer look

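A single library stood far from the other 3 of its genotype in 4 of the 38 genes, where the gap to the nearest library passed Dixon's 95% limit as a share of the range. Over the 78 groups of 4 examined, Rac2 included, chance gives about 1 such group in 20, and 5 were found. In control, W6 was low for sli at 8272, for Ten-a at 6153 and for Ten-m at 5297. In sev14, S1 was low for Tl at 4120.2, and high for Rac2 at 754. The optic lobe marker sum of W6, 7733, was the lowest of the control libraries, and its part in the W6 values was not tested.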

How the results depend on the processing

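Over 19 alternatives, 22 of the 38 genes kept the direction of their change. Sema2b stayed higher in all 19 and past the threshold in 15. The number of guidance genes called higher was 0 in place of 1 without S2 and S4, without S2 and S5 (chosen after seeing the data), and under a replicate block on the column numbers, where the adjusted p for Sema2b was 0.0697. It was 0 or 1 on leaving out 1 library. The columns share 3 numbers, 1, 2 and 5, and deviations of these pairs correlated at 0.087, 0.19 and 0.063 over genes, so the numbers were not taken as a pairing. With the block, 2 partner genes were called lower and Ten-a stood at 0.12.

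Partner genes called lower were 1 as reported, 2 with total-read scaling, 0 without S2 and S4 or without S2 and S5, 3 by DESeq2, and 1 to 3 without 1 library. Partner genes called higher were 0, but 1 by DESeq2 and 0 to 1 without 1 library. Over all genes, 243 rose and 186 fell, against 110 and 110 without S2 and S4, 503 and 332 by DESeq2, 145 higher without S2 and S5, and 137 to 251 higher and 111 to 189 lower without 1 library. The cause was not tested. The sev difference ran from -0.51 to 0.08 without 1 library.

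Changes that reversed sign are as follows. With total-read scaling, which moved the median gene by -0.14, the changes were -0.05 for stan, -0.05 for robo2, -0.13 for NetA, -0.12 for Dscam2 and -0.10 for Nrg, and with TMM NetA was at -0.00. Without S2 and S4, Ptp4E was at 0.07, Ten-a at 0.01 and NetA at -0.22. Without S2 and S5, Ten-m was at -0.25, stan at -0.52, robo2 at -0.20, Dscam2 at -0.60 and Nrg at -0.07. Ten-a was at 0.08 by edgeR and 0.10 by DESeq2. Leaving out 1 library gave the following ranges of log2 change: Dscam2 -0.23 to 0.34, Dscam3 -0.81 to 0.11, NetA -0.32 to 0.45, Nrg -0.02 to 0.12, Nrt -0.26 to 0.01, PlexA -0.19 to 0.04, PlexB -0.16 to 0.03, Ptp4E -0.24 to 0.11, Ten-a -0.29 to 0.28, Toll-6 -0.60 to 0.22, fz2 -0.25 to 0.07, robo2 -0.08 to 0.26, robo3 -0.20 to 0.11, stan -0.14 to 0.35, unc-5 -0.51 to 0.02. The order of libraries held under both scalings, with S2 highest in 26 to 29 genes and S4 lowest in 20 to 24. NetA, with 299 reads in all, is the gene that depth limits most.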
